A study of Homo sapiens with 13 samples.

Results

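The baseline transcriptome of DLD-1 cells was read from the control arms of a knockdown study. DLD-1 is an established human cell line from a colorectal adenocarcinoma that the labels grade as Dukes' type C. All cells used here were transfected with a control siRNA (siCtrl) at 50 nM and harvested after 72 h, so both control arms share transfection and no untransfected cells were analysed here. Of the 13 samples of the series, 5 are controls: 3 from experiments 1 and 2 (called the 3-library arm below) and 2 from experiment 3 (the 2-library arm). The 3-library arm pools 2 libraries of experiment 1 and 1 of experiment 2. Its spread between libraries cannot be told apart from a difference between those experiments. The other samples received siRNAs against SOX9 or Y14 and were not used. RNA was selected by its poly(A) tail. DLD-1 is 1 line from 1 tumour, and nothing in the labels says that libraries of 1 experiment came from separate cultures, so every p-value below measures only the spread between these libraries.

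Each arm is given as 1 mean per gene symbol over its libraries, for 23886 symbols. These means were scaled to a total of 1000000 in each arm, and "level" below is that value, in parts per 1000000 (ppm). A gene was called expressed at 1 ppm or more in both arms, and silent when it had reads but stayed under 0.1 ppm in both. The means also let the whole reads of each library be solved for 17838 of 17953 read genes in the 3-library arm and for all 16564 in the 2-library arm. The libraries so recovered carry no sample name, so they are lettered by depth. In the 3-library arm a, b and c held 179.6, 37.9 and 24.98 M reads (M, 1000000), and in the 2-library arm a and b held 67.2 and 47.1 M. The level in a library is its reads over its size factor on the arm's scale, and the arm's level is the mean of these. The floor of 3 reads over an arm's summed depth, which covers counting error only, was 0.0124 ppm in the 3-library arm and 0.0262 in the 2-library arm. Levels weigh libraries equally, so a read in library c raises a level more than a read in library a does. This floor is therefore only approximate on the scale of levels.

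The colon lining is an epithelium renewed from stem cells at the crypt base, where Wnt signalling is high. Their progeny mature into absorptive colonocytes or into secretory goblet, enteroendocrine and tuft cells, under transcription factors such as CDX2, HNF4A and, in the crypt, SOX9. Colorectal tumours commonly switch Wnt signalling on by mutation of APC or CTNNB1 and keep some of this lineage programme while losing mature functions.

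Of the 23886 symbols, 11600 were expressed in both arms, which is 48.6%. The share was higher among protein-coding genes, so 48.6% is a low mark for the gene lists below. A further 3896 were silent, 5584 were listed at 0 in both arms, 2194 lay between these bounds, and 612 reached 1 ppm in 1 arm only. Those 612 comprised 506 genes in the 3-library arm and 106 in the 2-library arm. Expressed genes included 10995 that RefSeq classes as protein-coding, 251 lncRNAs and 145 transcribed pseudogenes. A level of at least 100 ppm was reached by 2027 genes in both arms and of at least 1000 by 66. A listing at 0 is not evidence of silence in these tables. The genes RPL17 and RPS10 (ribosomal subunits), NDUFC2 (respiratory complex I), HSPE1 (a mitochondrial chaperonin) and RBM8A (which encodes Y14, a target of the study) were all listed at 0. Genes at 0 are therefore only named as listed at 0 below.

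Promoters of expressed and silent genes differed in base composition, and 4 of them are shown for that reason. RefSeq promoter windows (GRCh38.p14, 250 bases before to 50 after the start) matched 16385 symbols. Only the first listed window of each symbol was kept, and which start these cells use was not tested. CpG observed over expected, the number of CG pairs relative to the number that C and G content gives, had a median of 0.852 over 9218 expressed protein-coding genes, 0.439 over 2191 silent ones and 0.771 over all 15244. GAPDH (a glycolytic enzyme) and CDX2 (the intestinal homeobox factor) stand for expressed genes and ALB (liver albumin) for a silent one. KRT8 (an epithelial keratin) is an expressed gene whose listed window held almost no CG. The 250 bases before each start follow, 5′ to 3′ on the gene's strand, with every CG in capitals. They were chosen after their values were seen.
GAPDH, chr12:6535014-6535263, plus strand: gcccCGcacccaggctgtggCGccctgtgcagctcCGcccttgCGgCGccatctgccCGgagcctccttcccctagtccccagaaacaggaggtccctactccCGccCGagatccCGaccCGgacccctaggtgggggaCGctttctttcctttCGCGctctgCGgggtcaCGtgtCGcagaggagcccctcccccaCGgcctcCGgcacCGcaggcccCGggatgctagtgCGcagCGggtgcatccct
CDX2, chr13:27969316-27969565, minus strand: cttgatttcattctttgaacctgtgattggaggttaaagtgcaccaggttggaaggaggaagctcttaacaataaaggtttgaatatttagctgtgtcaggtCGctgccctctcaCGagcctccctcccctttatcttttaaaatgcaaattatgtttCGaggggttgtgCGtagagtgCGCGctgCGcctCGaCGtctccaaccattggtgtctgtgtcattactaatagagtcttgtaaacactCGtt
KRT8, chr12:52926470-52926719, minus strand: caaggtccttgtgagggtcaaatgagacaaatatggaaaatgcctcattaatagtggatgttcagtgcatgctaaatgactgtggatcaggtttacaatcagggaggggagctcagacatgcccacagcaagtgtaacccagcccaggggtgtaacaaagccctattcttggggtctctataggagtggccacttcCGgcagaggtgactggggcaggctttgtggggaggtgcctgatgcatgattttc
ALB, chr4:73404037-73404286, plus strand: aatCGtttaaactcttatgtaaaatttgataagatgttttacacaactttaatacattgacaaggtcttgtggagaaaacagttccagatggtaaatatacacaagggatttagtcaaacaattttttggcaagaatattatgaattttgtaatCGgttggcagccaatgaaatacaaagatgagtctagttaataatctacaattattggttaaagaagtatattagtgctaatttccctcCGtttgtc

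These windows held 22 CG pairs in GAPDH, 10 in CDX2, 1 in KRT8 and 3 in ALB. Short motifs were searched on both strands of the 300-base windows and are descriptions, not binding sites. The GC box GGGCGG, known for SP and KLF factors, was in 71.8% of expressed, 42.9% of silent and 59.6% of all protein-coding promoters, and it overlaps CpG content by its own letters. The ETS core CCGGAAG was in 20.6%, 4.52% and 14.5% of the same sets. TATAAA was in 5.14%, 12.7% and 9.38%, and the CDX core TTTATNG in 5.64%, 10.1% and 7.91%. CCAAT, bound by NF-Y, differed little, at 37.1%, 34.8% and 36.4%.

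Reads were spread over many genes. The 1000 highest genes held 50.7% of the 3-library total and 50.6% of the 2-library total, and the 10 highest 5.29% and 4.49%. Per length (level divided by the median GENCODE transcript length and rescaled to 1000000 in all) the 10 highest genes were FTH1, GAPDH, EEF1A1, ACTB, ENO1, RPS2, PABPC1, HSPA8, RPL12 and RPLP0. FTH1, the iron-storing ferritin heavy chain, stood at 8536 and 8200 ppm per kilobase in the 3- and 2-library arms. GAPDH stood at 7207 and 6820 on that scale. The translation factor EEF1A1 stood at 7968 and 5094. Several of these have near-identical copies in the genome, so their values are uncertain where the authors' counting split reads between copies.

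Structural genes of an epithelium were broadly expressed: 29 of 32 junction and keratin genes passed 1 ppm in both arms. Per length, the simple-epithelial keratin KRT8 stood at 1993 ppm per kilobase in the 3-library arm and 2026 in the 2-library arm, its partner KRT18 at 1544 and 2044, and KRT19 at 748 and 643. CDH1, the E-cadherin of adherens junctions, had levels of 666, 748 and 735 ppm in libraries a, b and c and of 756 and 739 in the 2-library arm. The arms overlapped for CDH1, and its difference did not pass the test between experiments described below. EPCAM, the epithelial adhesion molecule, was at 659, 560 and 568 against 866 and 857, so the 2-library arm was above all others. The intestinal cadherin CDH17 was at 198, 192 and 181 against 159 and 157. The colonocyte keratin KRT20 was close to the bound at 1.96, 1.92 and 1.72 against 1.48 and 1.70, and the basal keratin KRT14 was silent.

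Intestinal transcription factors were also mostly on, with 24 of 30 expressed, 3 silent and GATA5 listed at 0. SOX9, the crypt factor targeted in the rest of the study, had levels of 373, 522 and 520 ppm in libraries a, b and c. In the 2-library arm it was at 301 and 291, below all 3, and 1.59-fold lower by the arm means (adjusted p 0.0162 by limma-voom with Benjamini-Hochberg adjustment, over all genes). Library a thus lay between libraries b and c and the 2-library arm for SOX9. Calls between the arms were frequent, as given with the comparison of the arms. The SOX9 difference is not corrected for the trend with GC content described below, and the part of that trend in it was not tested. CDX2, the homeobox factor of intestinal identity, was at 173, 277 and 249 against 123 and 123. HNF4A, a nuclear receptor of gut and liver, was nearly level at 61.2, 57.6 and 59.0 against 59.7 and 58.5. KLF5, EHF and FOXA1 were each above 200 ppm in every library. Silent members included CDX1, with 12 reads in the 3-library arm and 1 in the other, and GATA4, with 0 and 1.

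Of the colon epithelium markers used to check the label, CDX2, EPCAM, CDH1, CDH17, KRT8, KRT18, KRT19 and VIL1 were thus present, with CDX1 silent and KRT20 just above the bound.

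Stem and progenitor genes were expressed in 14 of 20 cases, and Wnt feedback and target genes in 16 of 20. AXIN2, a negative feedback gene of Wnt signalling, was at 503, 538 and 503 ppm in libraries a, b and c and at 403 and 400 in the 2-library arm. RNF43, a ubiquitin ligase that removes Wnt receptors, was at 204, 260 and 250 against 188 and 186. LGR5, the receptor that marks crypt stem cells, was at 56.4, 51.9 and 57.4 against 66.5 and 65.7. ASCL2, a stem cell factor, was at 138, 220 and 215 against 49.9 and 47.4, which is 3.93-fold lower in the 2-library arm. The transcript of ASCL2 has a GC content of 69.2%, and its log2 difference of -1.96 was -0.50 once the trend with GC content described below was taken out. OLFM4, a marker of intestinal stem cells, was silent with 1 read in all 5 libraries. The Wnt targets MYC and CCND1, drivers of growth, were also high. MYC was at 307 ± 49.9 ppm (SD, n = 3) in the 3-library arm and 265 ± 2.07 (SD, n = 2) in the other, a difference that did not pass the test. CCND1 was at 498 ± 37.3 and 715 ± 1.39 in the same order and did pass.

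Mature absorptive genes were mostly not expressed. Of 32 enterocyte and colonocyte markers 6 were expressed, 10 were silent and 7 were listed at 0. VIL1, the microvillus protein villin, was at 87.6, 90.6 and 77.2 ppm against 70.1 and 70.8. The brush-border peptidase DPP4 was at 12.3, 10.4 and 11.7 against 18.5 and 18.7. Carbonic anhydrase CA2 was at 11.4, 8.82 and 10.3 against 10.97 and 10.9. FABP1 and CA1, for fatty acid binding and carbonic anhydrase of mature cells, each had 1 read in all, and FABP2, GUCA2B, MS4A12 and CEACAM7 were listed at 0. SLC26A3, the chloride exchanger of surface colonocytes, had 39, 66 and 27 reads in libraries a, b and c and 0 reads in both libraries of the 2-library arm. Libraries b and c put SLC26A3 above 1 ppm, with 1.73 in library b, against 0.218 in library a.

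Secretory genes split. AGR2, a disulphide isomerase that goblet cells need for mucin, was at 450, 560 and 570 ppm against 554 and 534, and the membrane mucin MUC13 at 54.4, 64.5 and 59.4 against 44.6 and 45.6. The trefoil peptide TFF3 was lower in the 2-library arm, at 16.5, 13.8 and 14.4 against 4.52 and 5.09. The defining goblet mucin MUC2 was silent, with 18 reads over the 3-library arm and 0 in the other. ATOH1, the switch to secretory fate, had an arm level of 0.115 and 0.0224 ppm. In all, 10 of 23 goblet and secretory genes were expressed, 3 of 12 Paneth genes, 3 of 24 enteroendocrine genes and 1 of 18 tuft and BEST4 genes. The endocrine members on were SCG5, ISL1 and PAX6, with SCG5 at 7.68 and 4.69 ppm by arm, while the granule protein CHGA had 1 read. The tuft gene on was AVIL, at 3.796 and 2.25, while the tuft kinase DCLK1 had 2 reads.

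**Figure D1:**
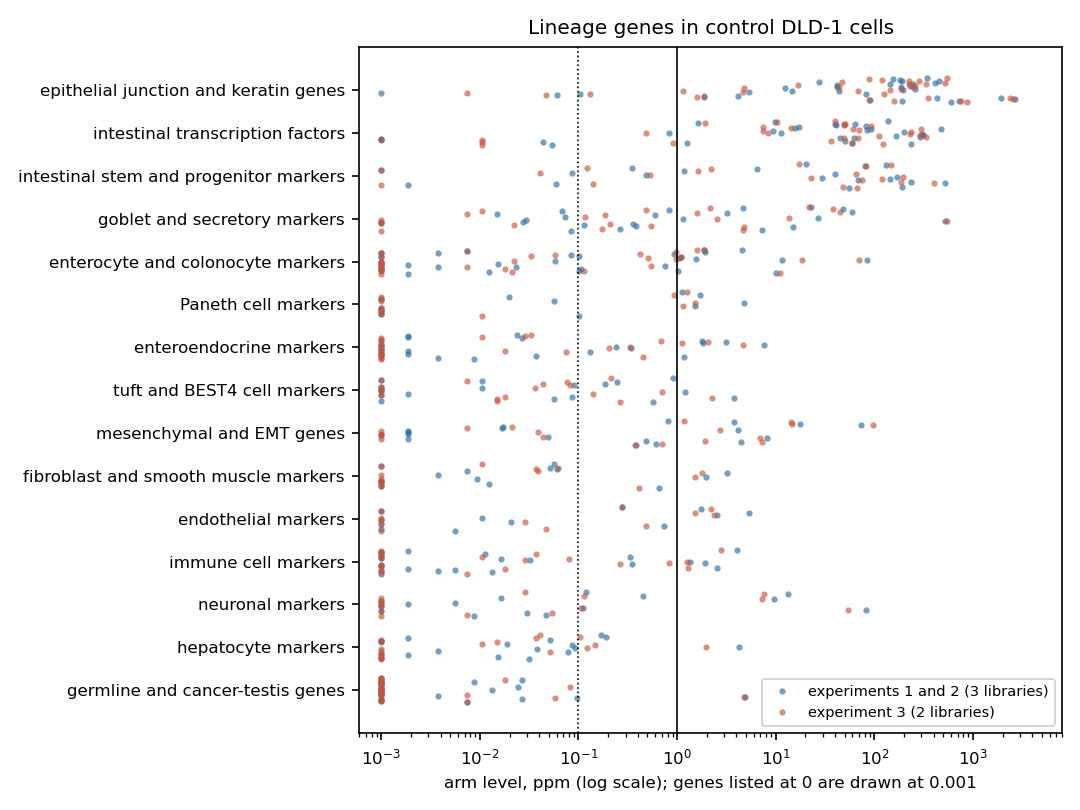
Each point is 1 gene of a lineage list (rows) at its level in ppm in the 3-library arm (experiments 1 and 2, blue) or the 2-library arm (experiment 3, red), on a log axis with a solid line at 1 and a dotted line at 0.1 ppm, and with genes listed at 0 drawn at 0.001. Most points of the epithelial and intestinal factor rows lie right of 1, with 29 of 32 and 24 of 30 genes expressed, while most points of the mature and other-lineage rows lie left of it.

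Most mesenchymal genes stayed low. Vimentin (VIM), the intermediate filament of mesenchymal cells, was at 0.369, 0.341 and 0.440 ppm in libraries a, b and c and at 0.373 and 0.381 in the 2-library arm. Of 18 mesenchymal and EMT genes 6 were expressed, among them the matrix protein TGFBI at 73.4 ± 0.648 and 97.97 ± 2.84 ppm by arm (SD, n = 3 and n = 2). The repressor ZEB1 lay on both sides of the bound, at 0.246, 0.525 and 0.680 against 1.997 and 1.84, with every library of the 2-library arm higher. ZEB2 had 1 read, SNAI2 was silent and TWIST1 was listed at 0. After TGFBI, the highest members by the mean of both arms were S100A4, CTGF, the repressor SNAI1 and fibronectin (FN1). Of 8 members at 1 ppm or more in at least 1 arm, 2 were at least 2-fold higher in the 2-library arm and 0 lower. Over all genes these shares were 1.51% and 10.1%. The median log2 difference of the 8 was 0.39, beside -0.07 over all genes.

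Defining genes of other cell types that a culture could hold were few. Summed over 14 fibroblast and smooth muscle markers, the libraries held between 3.75 and 6.93 ppm, over 12 endothelial markers between 6.46 and 11.8, and over 21 immune markers between 6.48 and 11.8. The collagen COL1A2, decorin (DCN), lumican (LUM), the endothelial receptors KDR and TIE1, and the lymphoid and myeloid genes MS4A1 and TYROBP were listed at 0. The pan-leukocyte gene PTPRC was silent. Those above 1 ppm in both arms were ACTA2 and PDGFRB, then EGFL7, ESAM and ERG, then LCP1, CD8A and CD68, and none of these reached 6 ppm in an arm. In lists of more distant lineages the members above 10 ppm in both arms included MBP, TUBB3, SFN, KRT10, TMPRSS2, MITF and DNMT3B. MBP, best known from myelin, was at 58.1 ± 1.66 and 76.3 ± 0.350 by arm (SD, n = 3 and n = 2), and TUBB3, a neuronal tubulin, at 81.5 ± 5.52 and 54.4 ± 1.22. Silent or listed at 0 in these lists were 8 of 9 glial, 9 of 15 neuronal and 10 of 14 squamous genes. So were 7 of 13 breast, prostate and urothelial, 5 of 7 melanocyte and 8 of 12 pluripotency genes. The same held for 13 of 18 hepatocyte and 8 of 8 red blood cell genes, beside 9480 of 23886 symbols in all. Of 24 germline and cancer-testis genes only TEX14, a protein of germ cell bridges, was expressed, at 4.86 and 4.75.

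HOX genes, which give position along the body axis, were expressed mainly in the A and B clusters. Expressed were 9 of 11 HOXA and 9 of 10 HOXB genes, against 0 of 9 HOXC and 2 of 9 HOXD genes. The B cluster carried 78.6% of all HOX level in the 3-library arm and 71.6% in the 2-library arm. HOXB9 was at 263, 366 and 357 ppm in libraries a, b and c and at 184 and 182 in the 2-library arm. HOXB6 was at 191, 238 and 234 against 85.3 and 85.4, with no overlap. The posterior gene HOXA13 was at 71.5, 96.5 and 102 against 65.04 and 62.8, and HOXB13 at 18.9, 21.1 and 18.8 against 11.5 and 11.9. HOXA11 was level between the arms at 49.2 and 48.7. HOXA9, HOXA10, HOXC5 and HOXC6 were listed at 0.

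**Figure D2:**
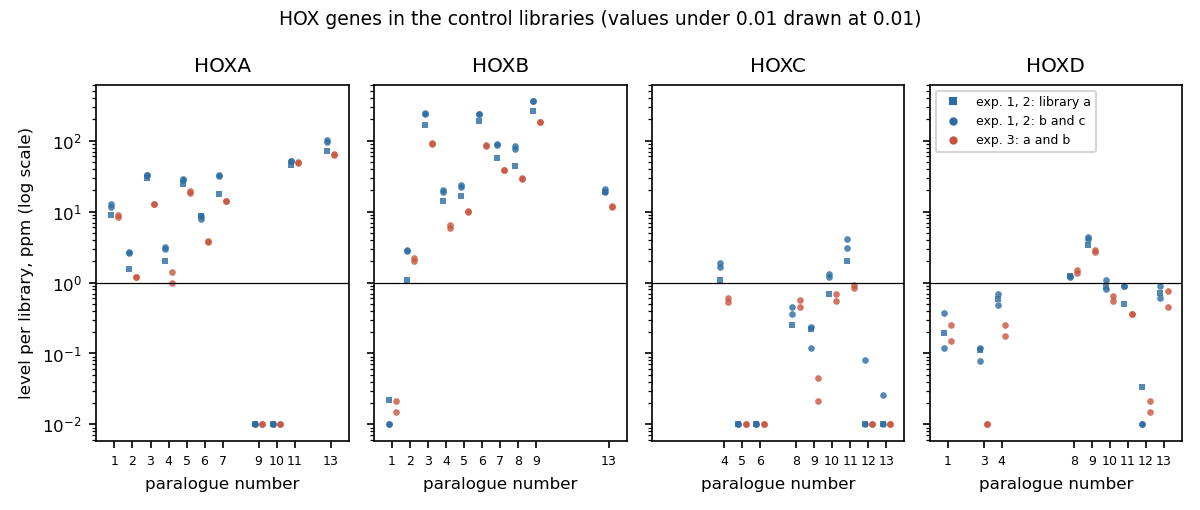
Each point is the level in ppm (log axis) of 1 HOX gene in 1 recovered control library, by cluster (panels) and paralogue number (horizontal axis), with library a of experiments 1 and 2 as blue squares, b and c as blue circles and the 2 libraries of experiment 3 as red circles. Most HOXA and HOXB genes lie above the line at 1 ppm and most HOXC and HOXD genes below it, and the red points lie below the blue ones for most expressed HOXB genes.

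Growth genes of a dividing colorectal tumour line were on, as were many signalling genes. All 25 S phase and all 25 G2/M genes were expressed, with MKI67 at 416, 482 and 467 ppm against 458 and 447. The inhibitor CDKN2A (p16 and ARF) was silent at 0.0572 and 0.0361, while CDKN1A (p21) was at 13.2 ± 1.39 and 12.6 ± 0.776 (SD, n = 3 and n = 2). All 26 colorectal driver genes were expressed, among them CTNNB1 (beta-catenin) at 287 ± 92.2 and 523 ± 9.26 by arm (SD, n = 3 and n = 2). CTNNB1 was at 393 in library a, between the 231 and 236 of libraries b and c and the 516 and 530 of the 2-library arm. Of 30 receptor tyrosine kinases and ERBB ligands 20 were expressed. That is 66.7%, beside 48.6% of all symbols and more of the protein-coding ones, so the count says little. Expressed receptors included MET at 237 ± 19.8 and 364 ± 5.98, EGFR at 66.8 ± 5.26 and 103 ± 0.583, and ERBB2 at 171 ± 21.3 and 118 ± 2.50 (SD, n = 3 and n = 2). All 28 proteasome genes and all 23 cholesterol synthesis genes in the tables were expressed.

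Among 21 antigen presentation genes 14 were expressed, with B2M, the light chain of class I molecules, at 64.4, 73.5 and 80.1 ppm against 63.1 and 60.7. The class II gene HLA-DRA and its activator CIITA were listed at 0, and CD74 was silent. Of 31 interferon-stimulated genes 18 were expressed, among them the RNA sensor enzyme OAS3 at 175 ± 4.57 and 202 ± 1.94 ppm (SD, n = 3 and n = 2). Of 20 cytokines and chemokines 11 were expressed. The neutrophil chemokine CXCL5 was at 354, 304 and 341 against 464 and 465, whereas TNF was listed at 0 and IL6 had 2 reads.

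Gene families differed widely in the share expressed. Among transcripts that mostly lack a poly(A) tail, 4 of 73 histone genes, 15 of 1324 microRNA precursors and 5 of 368 small nucleolar RNAs were expressed, against 75 of 76 mitochondrial and 76 of 87 cytosolic ribosomal protein genes and 352 of 525 ZNF zinc finger genes. Expressed olfactory receptor genes numbered 2 of 397, and keratin-associated protein genes 0 of 93. Over all symbols the expressed share was 48.6%.

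The arms were then set against each other. They come from different experiments and from tables normalised separately, so arm, experiment and processing cannot be told apart. The log2 levels of 12212 genes at 1 ppm or more in at least 1 arm had a Pearson correlation of 0.955 across genes, which are not independent replicates. Of these genes 68.0% lay within 1.5-fold. On the scale of log2(level + 0.5 ppm), 185 genes were at least 2-fold higher in the 2-library arm, 1.51% of those compared, and 1238 were at least 2-fold lower, 10.1%. With the means as the authors deposited them, not rescaled, the split was 477 higher and 852 lower, and the median of all genes moved by 0.21 in log2. With the trend in GC content taken out it was 150 higher (1.26% of 11902 genes) and 280 lower (2.35%). Without library a of the 3-library arm it was 338 higher and 1430 lower.

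Libraries lay closer together within each arm than between arms, with library a farther from b and c than these were from each other. Over 11485 genes log2 levels correlated at 0.997 between libraries b and c and at 0.999 between both libraries of the 2-library arm, with 1 and 0 genes at least 2-fold apart. For 637 high genes of the 3-library arm the recovery of reads held b and c close, as given with the processing. Library a correlated at 0.986 and 0.988 with b and c, and at 0.965 with each library of the other arm. Libraries b and c correlated at 0.936 to 0.943 with that arm. Library a was thus nearer the 2-library arm than b and c were. Between 10 and 100 ppm the median coefficient of variation was 8.75% in the 3-library arm, 3.62% in libraries b and c alone and 1.74% in the 2-library arm.

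**Figure D3:**
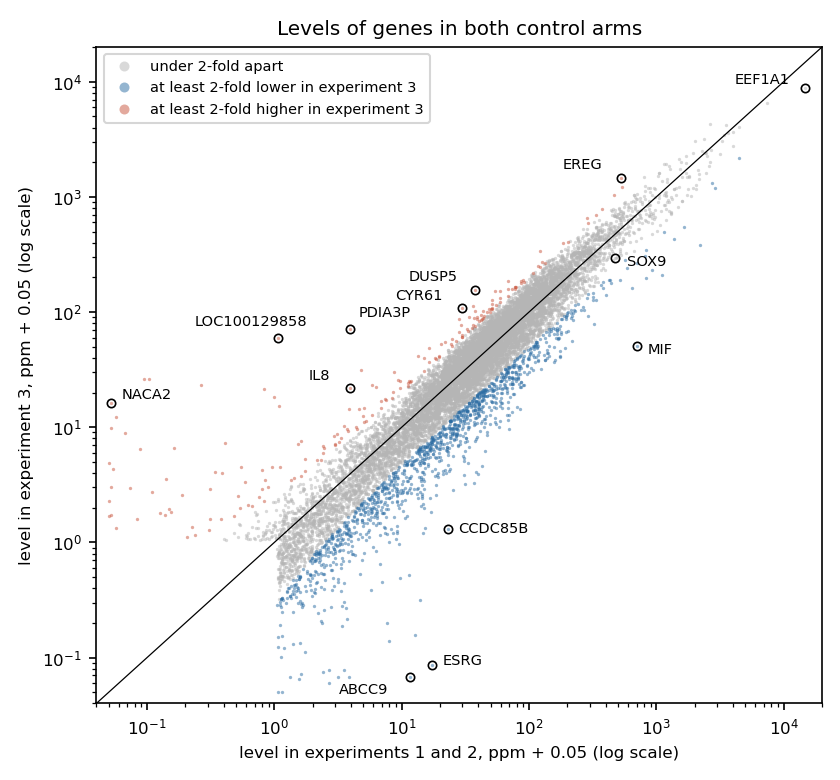
Each point is 1 of 12212 genes at its level in ppm plus 0.05 in the 3-library arm (horizontal) and the 2-library arm (vertical), both on log axes, with genes at least 2-fold higher (red) or lower (blue) in the 2-library arm on the log2(level + 0.5) scale and the diagonal as equality. The 1238 blue points outnumber the 185 red ones, and a few red points at the left have almost no reads in the 3-library arm.

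The recovered reads of the 5 libraries allowed a test, limma-voom with Benjamini-Hochberg adjustment over 12097 genes. It called 3650 genes higher (30.2%) and 3839 lower (31.7%) in the 2-library arm at an adjusted p under 0.05. Both libraries lay above all 3 others for 36.2% of genes and below for 44%, so a call or a lack of overlap was common. Of the 185 and 1238 genes past 2-fold, 184 and 1219 were also called in that direction. The calls rest on few libraries: without library a or b of the 2-library arm, 1475 or 1660 genes were called higher and 1979 or 2193 lower, and without library a of the 3-library arm 5043 and 5017.

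The difference between the arms moved with the base composition of the transcript. Over 11902 genes with a GC content, it had a Spearman correlation of -0.68 with GC content and 0.24 with transcript length, both across genes. Below 35% GC the median log2 difference was 0.47, and at 65% or more it was -1.37, where 77.1% of 441 genes were at least 2-fold lower in the 2-library arm. Genes past 2-fold had a median GC content of 43.6% when higher and 63.1% when lower, beside 49.9% over all compared. Inside the 3-library arm, library a against b and c had a correlation of -0.45 with GC content, and inside the 2-library arm a against b -0.17. What part GC content has in the difference of any single gene was not tested.

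**Figure D4:**
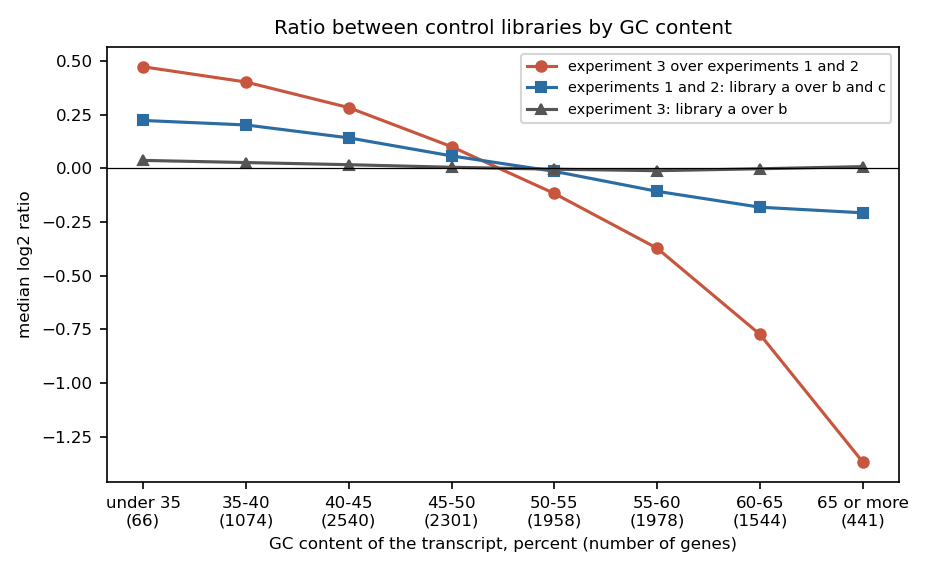
Points give the median log2 ratio of genes in each class of transcript GC content (horizontal axis, with the number of genes), for the 2-library arm over the 3-library arm (red), library a over b and c of the 3-library arm (blue) and library a over b of the 2-library arm (grey). The red line runs from 0.47 below 35% GC to -1.37 at 65% or more, the blue line slopes the same way from 0.22 to -0.21, and the grey line stays between -0.01 and 0.04.

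Some genes lower in the 2-library arm stood apart from that trend, and 4 are given here. ESRG, an RNA known from pluripotent cells, was at 11.7, 25.1 and 14.7 ppm in libraries a, b and c and had 2 and 2 reads in the 2-library arm. HHLA1, named for its association with a retroviral long terminal repeat, was at 8.09, 19.1 and 10.8 against 0.0894 and 0.127. The intergenic RNA LINC00678 was at 4.04, 12.2 and 7.28 against 0.134 and 0.0424. ABCC9, a subunit of ATP-sensitive potassium channels, was at 8.71, 13.9 and 12.2, with 1 read in each library of the other arm. In all 4 the arms did not overlap, as in all 1229 genes at least 2-fold lower that have library values. These genes were named for their large difference, so their p-values add no support. For ESRG, HHLA1, LINC00678 and ABCC9 the limma-voom adjusted p, by Benjamini-Hochberg, was 0.0014, 0.0026, 0.0077 and 0.00042. Their GC contents lay between 40.2% and 48.5%, and without the GC trend their log2 differences were -5.13, -4.56, -3.94 and -4.88.

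Other genes lower in the 2-library arm were GC-rich. MIF, a secreted cytokine and tautomerase, was at 431, 848 and 828 ppm against 50.4 and 51.0, a 13.9-fold difference of arm means at a GC content of 66.7%. CLDN3, a tight junction claudin at 69.2% GC, was at 12.1, 17.4 and 14.5 against 1.03 and 1.29. The small heat-shock protein HSPB1 was at 437, 725 and 782 against 163 and 163, at 62.2% GC. IRF7, a regulator of interferon genes, was at 24.4, 34.7 and 37.6 against 7.53 and 7.61, at 66.9% GC. In all 4, library a stood below b and c. Without the GC trend the log2 differences of MIF, CLDN3, HSPB1 and IRF7 were -2.42, -1.72, -1.22 and -0.64.

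Some of the genes higher in the 2-library arm were copies of other genes. NACA2, a retrocopy of NACA, had 1 read over the 3-library arm and 1072 and 774 reads in the libraries of the other. PDIA3P, a pseudogene of PDIA3, was at 4.17, 3.91 and 3.52 ppm against 71.9 and 69.9, 18.3-fold higher. ANXA2P2 was at 0.386, 0.105 and 0.160 against 24.6 and 21.9. Pseudogenes made up 7.57% of the 185 higher genes, 3.63% of the lower and 1.56% of all compared. Reads of such copies cannot be told apart from those of the parent gene where the counting did not separate them, and these values are uncertain for that reason. The 18 listed genes of the pseudoautosomal regions, which lie on both X and Y, were all at 0 in the 3-library arm, while 10 had reads in the 2-library arm, led by the surface protein CD99 with 312 and 237 reads. That list was chosen after the values were seen.

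Targets of YAP and immediate-early genes, a list also chosen after the values were seen, were higher in the 2-library arm: 9 of 24 were at least 2-fold higher and none lower, beside 1.51% and 10.1% over all genes. Their median log2 difference was 0.53, beside -0.07 over all genes, and 0.84 with the GC trend taken out. limma-voom called 16 of 24 higher and 2 lower, beside 30.2% and 31.7% of all genes. The YAP target CYR61, a matricellular protein, was at 26.4, 30.8 and 32.2 ppm against 108 and 108. CTGF, its relative, was at 4.16, 3.203 and 4.04 against 14.1 and 14.6, and ANKRD1 at 1.51, 1.496 and 1.72 against 7.99 and 7.18. The MAP kinase phosphatase DUSP5 was at 40.9, 35.8 and 36.9 against 157 and 155, and the chemokine IL8 at 4.06, 3.73 and 3.84 against 22.1 and 21.7. EREG, a ligand of EGFR, was at 607, 453 and 535 against 1494 and 1439, 2.76-fold higher at a GC content of 36.1%. The arms did not overlap for any of these 6, nor for any of the 185 genes at least 2-fold higher. For the 6, the limma-voom adjusted p, by Benjamini-Hochberg, lay between 0.00012 (IL8) and 0.00064 (EREG). Their list was chosen after the values were seen, so this adds no support. AREG and DUSP4 of the same list were not higher, at 10.4 and 6.90 against 8.34 and 4.41 by arm.

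**Figure D5:**
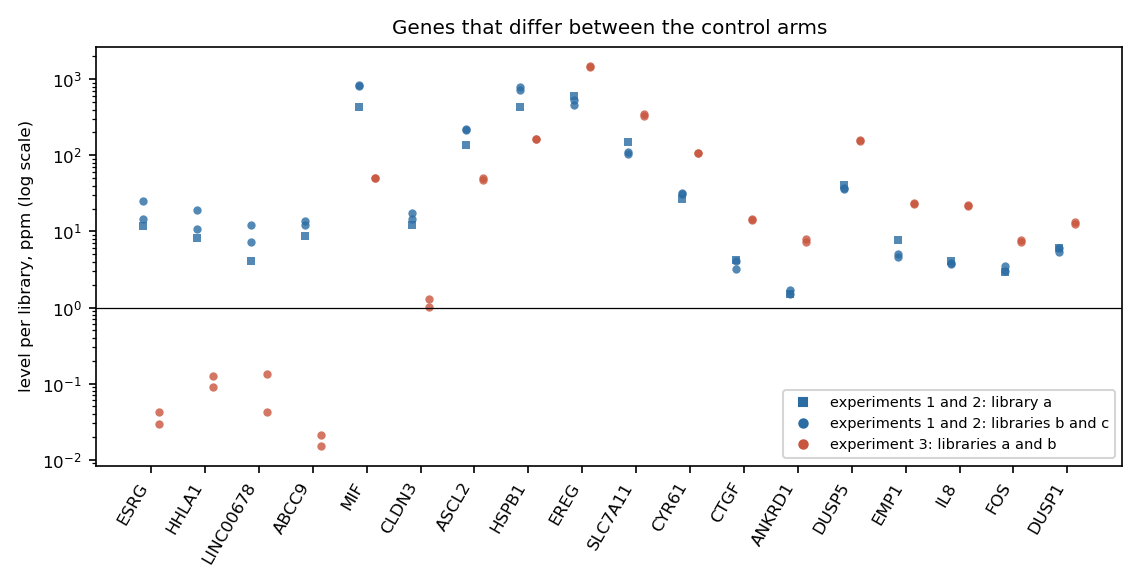
Each point is the level in ppm (log axis) of 1 gene in 1 recovered control library, with library a of experiments 1 and 2 as blue squares, b and c as blue circles and the libraries of experiment 3 as red circles, for genes picked for their difference. ESRG, HHLA1, LINC00678 and ABCC9 drop below 0.2 ppm in experiment 3, MIF, CLDN3, ASCL2 and HSPB1 are lower there, and the other genes, from EREG to DUSP1, are higher.

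Of the lists chosen earlier, HOX genes had a median log2 difference of -0.91, with 9 of 23 compared genes at least 2-fold lower, beside 10.1% over all genes. Without the GC trend the median was -0.62 and 4 of 23 were lower, beside 2.35%. Cytosolic ribosomal protein genes had a median of -0.43 over 76 genes, and their summed level was 89884 ppm in the 3-library arm and 61613 in the 2-library arm. Their median was -0.45 with the GC trend taken out. At least 2-fold lower were 11 of 76, beside 10.1% over all genes. Only 29 of the 76 have values per library, and limma-voom called 11 of these lower and 2 higher, beside 31.7% and 30.2%. Their median transcript length was 0.685 kilobases, beside 1.80 over all genes compared, and the part of length was not tested. RPL41 had arm levels of 2193 and 379, with no value per library in the 3-library arm. Proteasome genes had a median of 0.25 over 28 genes and chaperones of 0.28 over 25, beside -0.07 over all genes. At least 2-fold higher were 0 genes of either list, beside 1.51% over all genes, which is no result about these lists. At least 2-fold lower were 0 proteasome genes and 1 chaperone gene, beside 10.1%. The proteasome subunit PSMD14 was at 147 and 252 by arm. Of 23 integrated stress response genes, 2 were at least 2-fold higher and 2 lower, beside 1.51% and 10.1% over all genes, so the count lower is near the background. SLC7A11, the cystine transporter, was at 152, 103 and 112 ppm against 346 and 330, while CHAC1, which degrades glutathione, was at 41.3, 44.3 and 43.9 against 13.3 and 13.8.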

How the data were processed

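The authors deposited 2 comparison tables, and their control columns were used. Per the file headers these hold the authors' DESeq base means, a signal made from each library's read counts over its size factor and averaged within an arm. The tools HISAT2, TopHat2, Bowtie, HTSeq and SAMtools, the authors' DESeq and the build hg19 are named per the submitters' processing notes. Which tool made which table, tool versions and strand settings are not given in the sources used here. Ids turned into dates in 1 table were read back by name. Columns of per-sample values left unused numbered 0.

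Each control column was scaled to 1000000. Every mean is a sum of whole reads times 1 weight per library, so the reads were solved for. In the 3-library arm this was done up to a mean of 45000, and all sets of reads were tried up to 1500. From 1500 to 12000, each of its libraries was held between 0.25 and 2 times the mean. Above 12000 (637 genes), libraries a and c were held close to b, so b and c could not come out 2-fold apart. On simulated means 1188 of 1200 genes of the 3-library arm were solved rightly and none wrongly, and 1200 of 1200 of the other, while 29 and 0 of 1200 means shifted off the lattice were accepted. The simulated libraries of an arm shared 1 expected level per gene. Recovery of genes whose libraries lie far apart was therefore not tested. Recovered reads were tested with limma 3.58.1 (voom, TMM factors, R 4.3.3), 3 libraries against 2, two-sided, Benjamini-Hochberg adjusted, at 0.05. On reads simulated at these depths (12097 genes) limma-voom called 99 of 100 genes changed 2-fold and all 100 changed 4-fold, with 11 false among 210 calls. The simulation changed 200 genes, gave all genes the same dispersion and held no GC trend and no outlying library. Its rates therefore do not describe the calls on the real libraries. The design was written for the case that reads could be recovered. Lengths and GC content are medians over GENCODE 29 transcripts, and the GC trend is a running median over 501 genes.

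Members and gene lists were chosen with earlier results of these data known, so lists got no test. Genes named were the 10 highest in ppm and per kilobase, the 10 furthest apart in each direction at 5 ppm or more, up to 5 highest, 5 silent and 3 split members of each list, and SOX9; other genes of the lists were named after their values were seen, and some are not reported here. Levels have 2 or 3 libraries behind them. Alternatives were other scalings, pseudocounts, filters and normalizations, each library left out, and, added after the data were seen, removal of the GC trend and library a left out of the arm means.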

Additional observations from a re-analysis of the deposited data

How the results depend on the processing

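The count of 11600 expressed genes stayed between 9956 and 12235 over bounds of 0.5 and 5 ppm, a scaling to a median ratio of 1 and the removal of library a. Genes at least 2-fold higher in experiment 3 numbered 185, but 477 with the means as deposited, 118 among genes of at least 10 ppm and 338 without library a of experiments 1 and 2. Genes at least 2-fold lower numbered 1238, but 783 among genes of at least 10 ppm and 280 with the GC trend taken out. The filters test fewer genes, and the means as deposited raise all levels of experiment 3 by the same 0.21 in log2. For the other settings the cause was not tested. Leaving out 1 library at a time, limma-voom called 1475 to 5043 genes higher and 1979 to 5017 lower, where a lone library of experiment 3 was assumed to vary like the others. Other normalizations, limma-trend and no filter stayed within 1.5 times of 3650 and 3839. Log2 differences of the named genes and of all list members were set against the spread between libraries (or 0.1 without library values). With the GC trend taken out, 488 moved by more than that and 239 did not. With the means as deposited, 494 moved by more and 236 did not. Among differences of at least 2-fold in these genes, 1 changed sign with the GC trend taken out: SP5, a Wnt target, was -1.17 and became 0.17. Leaving library a out moved none of 657 beyond that spread, which itself includes library a. The 115 highest genes of experiments 1 and 2 have no value per library and no test. No paired analysis was possible because the recovered libraries carry no replicate numbers.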
